A study of Homo sapiens with 9 samples.

Results

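The genes of the 5 NF-kB subunits (NFKB1, NFKB2, REL, RELA and RELB) and of 5 proteins of the IkB family (NFKBIA, NFKBIB, NFKBIE, NFKBIZ and BCL3) were followed across 9 RNA sequencing libraries of BJAB. This established line of human B lymphocytes is labelled as a Burkitt lymphoma. The 10 genes were taken by symbol from the 57500 genes in the files, and all 10 passed the filter on low counts. The groups are 3 libraries of BJAB given the short isoform of the receptor TACI (TACI short), 3 of BJAB with the long isoform (TACI long), and 3 of parental BJAB (control). All cells were untreated. The titles call the lines stably transfected while the design text calls them transduced, and the sources used here do not say which promoter drove the isoforms or whether each line was a clone or a pool. They also do not say whether replicates were separate cultures, so p-values cover the spread from library to library and possibly technical spread alone.

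NF-kB transcription factors are dimers of Rel subunits. In the canonical pathway, the kinase IKK marks inhibitory IkB proteins for destruction, and dimers of RELA or REL with p50, the product of NFKB1, enter the nucleus. In the non-canonical pathway, the kinase NIK, encoded by MAP3K14, leads to the processing of p100, the NFKB2 product, to p52, which pairs with RELB. TACI, encoded by TNFRSF13B, is a receptor for BAFF and APRIL on B cells and can signal to NF-kB. NFKBIA, NFKBIE, NFKB2 and RELB are themselves well-known NF-kB target genes.

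The label of each line was checked first on TNFRSF13B, whose counts do not separate isoforms. It stood at 2964, 2965 and 2655 CPM (counts relative to the library total) in TACI short, at 691, 704.5 and 737.6 CPM in TACI long and at 28.8, 15.2 and 14.6 CPM in control. TACI short and TACI long thus differ in receptor RNA as well as in isoform (3.68-fold, log2 fold change 1.88 ± 0.23 SE, adjusted p = 0.000332), and isoform and level cannot be told apart in the comparison between the lines. Libraries held 40322136 to 50079203 counts, and all 8 B-cell markers were detected in every library. TACI short replicates 2 and 3 stood apart: they had counts for 32882 and 32209 genes, against 24307 to 25938 in the other 7 libraries, and their 10 myeloid markers summed to 128 and 124 CPM, against 28.7 CPM in TACI short replicate 1, 15.6 to 29.6 CPM in TACI long and 11.7 to 22.4 CPM in control. The myeloid marker S100A8 was at 0 in all 9 libraries. The difference was not limited to myeloid markers. In TACI short replicates 1, 2 and 3, VIM had 3.40, 23.1 and 24.6 CPM and COL1A1 had 3.24, 11.0 and 10.2 CPM. COL1A2 had 0.653, 3.99 and 4.11 CPM in these libraries. From the same epithelial and fibroblast list, EPCAM (76.7, 73.9 and 73.4 CPM) and DCN (2.43, 2.01 and 2.44 CPM) did not rise. Across the 10 NF-kB and IkB genes, the mean of replicates 2 and 3 over replicate 1 ran from 0.925 to 1.04, and results without these replicates are given below. In bulk RNA, more cells with a transcript and more of it per cell cannot be told apart.

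Start regions of several of these genes carry a DNA word that NF-kB can bind, shown here because it is a letter-level feature that these members share. Sequences are from RefSeq (GRCh38.p14), whose promoter table had entries for 8 of the 10 genes, and the 250 bases before each listed start were searched on both strands. The words were read from the members' own matches to the kB consensus (the match most members share, and for NFKB2 its match nearest to a start), so their frequency among the members is a description. The exact word GGGAATTTCC was in a window of 5 of the 8 (NFKB1, REL, NFKBIA, NFKBIB and NFKBIZ), against 0.176% of all 27305 genes in the table, and GGGACTTTCC was in a window of NFKB2, against 0.216% of all genes. In the lines below, each 30-base stretch is written 5′ to 3′ on the strand that holds the word, and capitals mark the word.
NFKB1: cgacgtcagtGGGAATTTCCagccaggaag
NFKB2: tggtattttcGGGACTTTCCtaagctgctc
REL: ctggcgggagGGGAATTTCCcgcggctgac
NFKBIA: gtcaggctcgGGGAATTTCCaagccagtca
NFKBIB: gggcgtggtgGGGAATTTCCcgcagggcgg
NFKBIZ: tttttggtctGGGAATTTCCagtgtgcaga
They lie at chr4:102501300-102501329 (plus strand), chr10:102395674-102395703 (plus), chr2:60881518-60881547 (minus), chr14:35404811-35404840 (plus), chr19:38899931-38899960 (plus) and chr3:101827757-101827786 (plus), in the order listed. Counted from the start listed next to them, the words are at positions -49 to -40 (NFKB1), -21 to -12 (NFKB2), -46 to -37 (REL), -81 to -72 (NFKBIA), -28 to -19 (NFKBIB) and -223 to -214 (NFKBIZ). Some listed starts lie inside the annotated gene. The words of NFKB2, REL and NFKBIB thus lie after the first annotated base of their genes (chr10:102394110, chr2:60881521 and chr19:38899700). The wider kB consensus was in windows of the same 6 genes, against 11.8% of all genes, and NFKB2 held further matches, among them some in a window that lies wholly in exons. The wider consensus was not matched in the windows of RELA and BCL3. The only window of BCL3, chr19:44748458-44748707, lies inside the gene, which starts at 44747705. Bases before that start were not searched. A match is a description of letters and not a bound site.

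NFKBIA, which had the second largest fold of the 10 genes between TACI short and control, has its whole 250-base upstream region outside annotated exons (chr14:35404750-35404999, minus strand, written in the direction of the gene, so that the word reads as its complement).
NFKBIA upstream region: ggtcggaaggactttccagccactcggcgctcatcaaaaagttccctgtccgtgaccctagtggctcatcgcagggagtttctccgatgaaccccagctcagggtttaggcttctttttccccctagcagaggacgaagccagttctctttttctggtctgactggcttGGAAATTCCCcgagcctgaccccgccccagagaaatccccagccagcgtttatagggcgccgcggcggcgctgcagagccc
The word is in capitals and ends 72 bases before the start of the gene.

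TACI short cells differed from control in subunits and inhibitors alike: the non-canonical subunit genes NFKB2 and RELB, the p105 gene NFKB1, and 4 of the 5 IkB genes were higher, with folds from 1.39 for NFKBIE to 8.51 for BCL3. RELA was slightly lower, and REL and NFKBIB did not pass the test. In edgeR's quasi-likelihood test over 16672 genes, 7 of the 10 were called higher and 1 lower at an adjusted p under 0.05. The background was high, since 62.6% of all genes were called in this comparison, 31.5% higher and 31.1% lower (5256 and 5179 genes, or 6873 and 3771 with library totals as scale). The CPM ranges of the 2 groups did not overlap for 9 of the 10 genes, RELA being the exception, and for 66.4% of all genes. The median log2 fold change was 1.14 over the 10 genes and 0.026 over all genes. Without TACI short replicates 2 and 3 the medians were 1.19 over the 10 genes and 0.011 over all genes. That fit leaves TACI short with 1 library, which is assumed to vary like the libraries of the other groups.

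**Figure D1:**
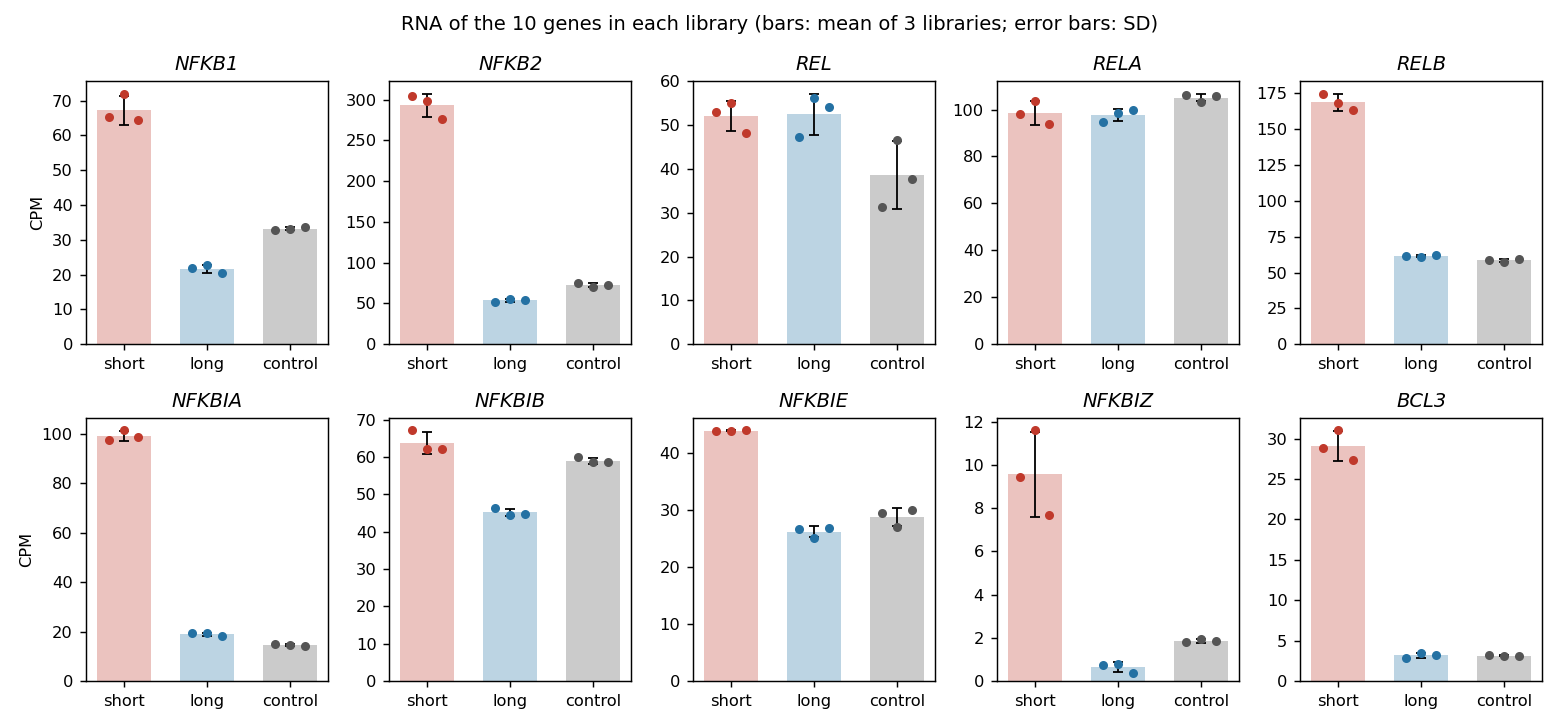
CPM of each of the 10 genes (one panel each, linear axes from 0) in the TACI short, TACI long and control libraries; points are libraries, bars are means of 3 and error bars are SD. NFKB2, RELB, NFKBIA, NFKBIB, NFKBIE, NFKBIZ, BCL3 and NFKB1 have every TACI short library above every other one, and RELA stays between 93.7 and 106 CPM in all 9.

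Among the subunits of the canonical pathway, NFKB1 (ENSG00000109320, chr4:102501329-102617302, plus strand, hg38 as are all gene positions here), which encodes p105 and its product p50, had 65.3, 72.0 and 64.4 CPM in TACI short, 21.95, 22.6 and 20.4 CPM in TACI long and 32.7, 33.1 and 33.5 CPM in control. The 3 groups did not overlap, with TACI short at the top and TACI long at the bottom. Its log2 fold change between TACI short and control was 0.89 ± 0.05 (SE, adjusted p = 1.79e-13).

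RELA (ENSG00000173039, chr11:65653596-65663094, minus strand) encodes p65, the main transactivating subunit of canonical dimers. It had 97.9, 104 and 93.7 CPM in TACI short, 94.6, 98.6 and 99.6 CPM in TACI long and 106, 103 and 106 CPM in control. The TACI short values overlap those of both other groups, so that RELA was the flattest of the 5 subunits in CPM. The fit, which scales by TMM factors (1.03 to 1.096 in TACI short, 0.962 to 0.9796 in the other groups), put it lower in TACI short than in control by -0.22 ± 0.04 on the log2 scale (adjusted p = 9.67e-05), and the change was -0.09 when libraries were scaled by their totals.

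REL (ENSG00000162924, chr2:60881521-60931610, plus strand) encodes c-Rel, the subunit most tied to B-cell activation and proliferation. It had 53.0, 55.0 and 48.2 CPM in TACI short, 47.2, 56.2 and 54.0 CPM in TACI long and 31.2, 46.7 and 37.7 CPM in control. Both TACI groups lay above all control libraries, but the control values spread widely. Its log2 fold change between TACI short and control was 0.31 ± 0.15 and was not called (adjusted p = 0.11); without control replicate 2 it was 0.44 (adjusted p = 0.00132).

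The non-canonical subunits had larger folds. NFKB2 (ENSG00000077150, chr10:102394110-102402529, plus strand), the gene of p100 and p52, had 304, 299 and 277 CPM in TACI short, 52.4, 55.2 and 53.9 CPM in TACI long and 75.6, 70.7 and 72.1 CPM in control. TACI short was far above control and TACI long below it, with no overlap. The fold between TACI short and control was 3.68 (log2 1.88 ± 0.05, adjusted p = 3.01e-19).

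RELB (ENSG00000104856, chr19:45001430-45038198, plus strand), the partner of p52, had 175, 168 and 163 CPM in TACI short, 61.8, 61.0 and 62.4 CPM in TACI long and 58.7, 57.5 and 59.6 CPM in control. TACI short stood apart, while TACI long and control lay within a few CPM of each other. Its fold between TACI short and control was 2.64 (log2 1.40 ± 0.05, adjusted p = 3.19e-17).

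Of the inhibitors that hold dimers in the cytoplasm, NFKBIA (ENSG00000100906, chr14:35401511-35404749, minus strand), the gene of IkB-alpha and of the fast negative feedback on canonical signalling, had 97.6, 101 and 98.6 CPM in TACI short, 19.3, 19.3 and 18.2 CPM in TACI long and 14.8, 14.5 and 14.1 CPM in control. The order TACI short, TACI long, control held without overlap. Its fold between TACI short and control was 6.26 (log2 2.65 ± 0.05, adjusted p = 4.6e-22).

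NFKBIB (ENSG00000104825, chr19:38899700-38908893, plus strand), the gene of IkB-beta, had 67.2, 62.2 and 62.2 CPM in TACI short, 46.2, 44.5 and 44.8 CPM in TACI long and 60.0, 58.6 and 58.6 CPM in control. The 3 groups did not overlap, with TACI short just above control and TACI long furthest apart. The fitted log2 difference between TACI short and control was -0.01 ± 0.05 (adjusted p = 0.81), and it turned to 0.11 (adjusted p = 0.018) when libraries were scaled by their totals.

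NFKBIE (ENSG00000146232, chr6:44258166-44265788, minus strand), the gene of IkB-epsilon, had 43.9, 43.9 and 44.0 CPM in TACI short, 26.7, 25.1 and 26.9 CPM in TACI long and 29.5, 27.0 and 30.0 CPM in control. TACI short was uniformly higher than both other groups, which are close to each other. The fold between TACI short and control was 1.39 (log2 0.48 ± 0.05, adjusted p = 3.72e-08).

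BCL3 and NFKBIZ encode nuclear members of the IkB family that bind p50 or p52 dimers on DNA and act there as co-regulators. BCL3 (ENSG00000069399, chr19:44747705-44760044, plus strand) had 28.8, 31.0 and 27.4 CPM in TACI short, 2.86, 3.44 and 3.22 CPM in TACI long and 3.17, 3.08 and 3.11 CPM in control. TACI short alone was high, and the TACI long and control values overlap. Its 8.51-fold difference between TACI short and control (log2 3.09 ± 0.08, adjusted p = 3.38e-19) was the largest of the 10 genes and ranked 229th of 16672 by log2 fold change; NFKBIA ranked 310th, NFKBIZ 542nd and NFKB2 1059th. BCL3 and RELB lie 241 kb apart on chromosome 19.

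NFKBIZ (ENSG00000144802, chr3:101827991-101861022, plus strand) was the scarcest of the 10, with 9.43, 11.6 and 7.67 CPM in TACI short, 0.733, 0.790 and 0.371 CPM in TACI long and 1.78, 1.93 and 1.84 CPM in control. The TACI long values rest on 31, 36 and 16 counts. The 3 groups did not overlap, and TACI short was the highest. Its fold between TACI short and control was 4.71 (log2 2.24 ± 0.19, adjusted p = 1.71e-07).

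In TACI long cells, which carry less TACI RNA than TACI short cells, NFKB1 and NFKB2 were lower than in control, as were NFKBIB and NFKBIZ, while NFKBIA was higher and BCL3 and RELB did not pass the test. Of the 10 genes, 2 were called higher and 6 lower in edgeR's test, where 51.1% of all genes were called, 25.2% higher and 25.9% lower. The CPM ranges did not overlap for 9 of the 10 genes, BCL3 being the exception, and for 60.7% of all genes. The median log2 fold change was -0.12 over the 10 genes and -0.0029 over all genes. Both comparisons use the same control libraries.

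In TACI long against control, NFKB1 averaged 21.7 ± 1.16 and 33.1 ± 0.411 CPM (SD, n = 3 each), a 1.53-fold lower level (log2 -0.61 ± 0.05, adjusted p = 5.12e-10). NFKB2 averaged 53.8 ± 1.41 CPM in TACI long and 72.8 ± 2.52 CPM in control (log2 -0.43 ± 0.05, adjusted p = 8.83e-08). The p105 and p100 genes, the 2 subunit genes whose products are both precursors and inhibitors, thus both fell in TACI long. RELB averaged 61.7 ± 0.711 CPM in TACI long and 58.6 ± 1.05 CPM in control (log2 0.08 ± 0.05, adjusted p = 0.18).

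Among the IkB genes, NFKBIA averaged 18.9 ± 0.608 CPM in TACI long and 14.5 ± 0.364 CPM in control, a 1.31-fold higher level (log2 0.39 ± 0.05, adjusted p = 8.35e-07). NFKBIB was 1.31-fold lower, at 45.2 ± 0.914 CPM in TACI long and 59.1 ± 0.813 CPM in control (log2 -0.38 ± 0.05, adjusted p = 9.76e-07). The genes of IkB-alpha and IkB-beta, 2 inhibitors of the same canonical dimers, thus moved in opposite directions in this line. NFKBIZ was 2.92-fold lower, at 0.631 ± 0.227 CPM in TACI long and 1.85 ± 0.0733 CPM in control (log2 -1.54 ± 0.23, adjusted p = 5.37e-05). BCL3 averaged 3.17 ± 0.295 CPM in TACI long and 3.12 ± 0.0498 CPM in control (log2 0.03 ± 0.09, adjusted p = 0.841).

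The calls of 3 members in TACI long against control were near the threshold. REL was higher (log2 0.45 ± 0.15, adjusted p = 0.0407), RELA lower (log2 -0.11 ± 0.04, adjusted p = 0.0457) and NFKBIE lower (log2 -0.13 ± 0.05, adjusted p = 0.042). The REL call was lost without any 1 of the TACI short libraries, TACI long replicate 2 or 3 or control replicate 3 (adjusted p of 0.0597 to 0.124), with log2 fold changes of 0.41 to 0.46. The RELA call was lost without any 1 of TACI short replicate 3, the TACI long libraries or the control libraries (adjusted p of 0.0512 to 0.254), with log2 fold changes of -0.13 to -0.086. The NFKBIE call was lost without TACI short replicate 2 or 3, any TACI long library or control replicate 1 or 3 (adjusted p of 0.0517 to 0.265), with log2 fold changes of -0.16 to -0.089.

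**Figure D2:**
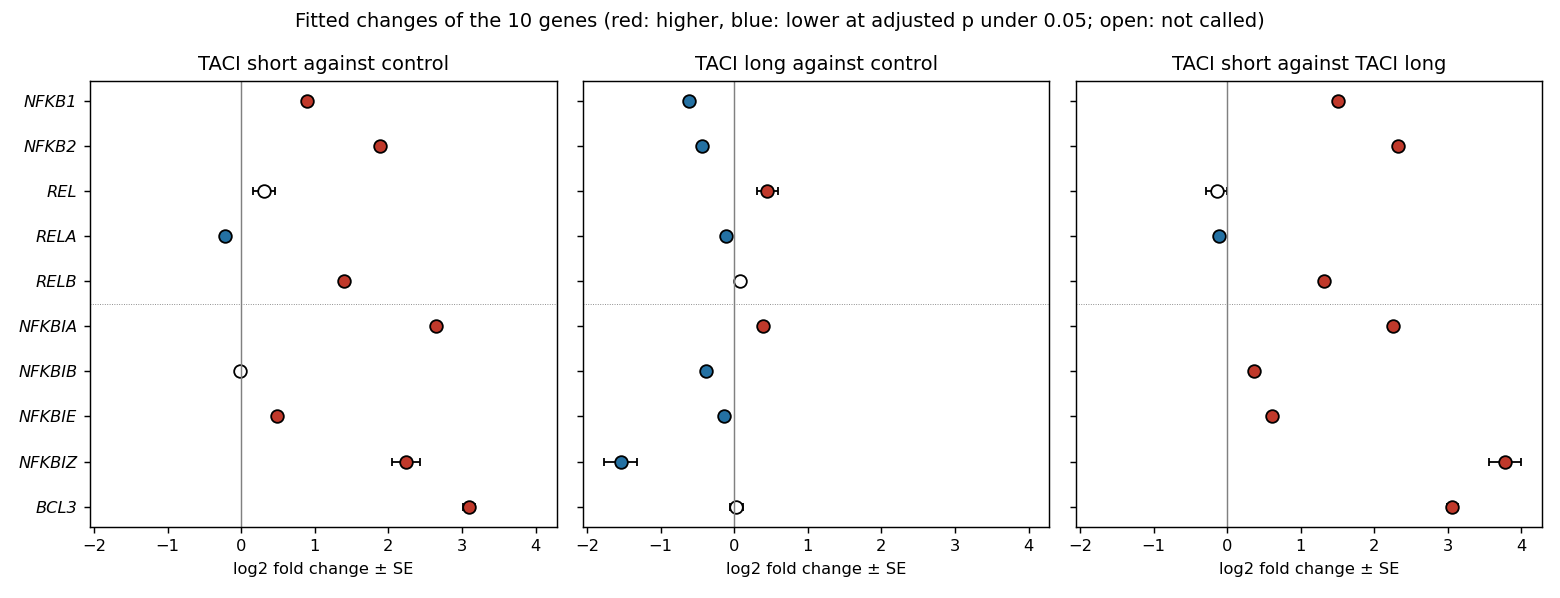
Log2 fold change with its SE (horizontal axis) of the 10 genes in the 3 comparisons; red points were called higher, blue points lower and open points were not called. NFKB1, NFKB2, NFKBIE and NFKBIZ lie right of 0 in TACI short against control and left of 0 in TACI long against control. BCL3 lies at 3.09 in the first and at 0.03 in the second.

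Set directly against TACI long, TACI short had higher RNA of 8 of the 10 genes and lower RNA of RELA in edgeR's test, and 68.8% of all genes were called, 35.2% higher and 33.6% lower (5870 and 5604 genes, or 7216 and 4345 with library totals as scale). The CPM ranges did not overlap for 8 of the 10 genes, REL and RELA being the exceptions, and for 71.6% of all genes. NFKBIZ differed most, at 9.57 ± 1.97 CPM in TACI short and 0.631 ± 0.227 CPM in TACI long (13.7-fold, log2 3.78 ± 0.22, adjusted p = 1.46e-09). BCL3 was 8.35-fold higher (log2 3.06 ± 0.08, adjusted p = 2.25e-19), NFKB2 4.98-fold (log2 2.32 ± 0.05, adjusted p = 4.61e-21) and NFKBIA 4.78-fold (log2 2.26 ± 0.05, adjusted p = 2.77e-21). All 5 IkB genes were higher in TACI short, NFKBIB by the least (1.29-fold, log2 0.37 ± 0.05, adjusted p = 8.61e-07).

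NFKB1 was 2.83-fold, RELB 2.50-fold and NFKBIE 1.53-fold higher in TACI short than in TACI long (adjusted p of 1.1e-17, 3.2e-17 and 4.72e-10). REL averaged 52.1 ± 3.49 CPM in TACI short and 52.5 ± 4.69 CPM in TACI long (log2 -0.14 ± 0.14, adjusted p = 0.407). RELA was lower in TACI short by -0.12 ± 0.04 on the log2 scale (adjusted p = 0.0193), which turned to 0.013 (adjusted p = 0.773) with library totals as scale and was lost without TACI short replicate 3 (adjusted p = 0.0965) or TACI long replicate 3 (adjusted p = 0.0804). With replicates 2 and 3 of TACI short left out, the remaining library was assumed to vary like those of the other groups. The median log2 fold change was then 1.45 over the 10 genes and 0.0072 over all genes, and that of RELA was -0.096.

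Ratios within a library need no scaling between libraries, and to compare genes the counts were divided by exon length. The mean of NFKB2 and RELB over the mean of NFKB1, RELA and REL was 5.69, 5.17 and 5.46 in TACI short, 1.92, 1.82 and 1.86 in TACI long and 1.98, 1.84 and 1.91 in control. On the log2 scale it averaged 2.44 ± 0.07 in TACI short, 0.90 ± 0.04 in TACI long and 0.93 ± 0.05 in control (SD, n = 3 each). TACI short lay above all other libraries, and the values of TACI long and control overlapped. These ratios over chosen genes were not tested.

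RELB over RELA averaged 3.09 ± 0.154 in TACI short, 1.14 ± 0.0321 in TACI long and 1.003 ± 0.00963 in control. Per length the 2 genes were thus level in control, where RELB averaged 58.6 CPM and RELA 105 CPM without that division. Every TACI long ratio lay above every control ratio. NFKB2 over NFKB1 averaged 6.09 ± 0.366 in TACI short, 3.47 ± 0.192 in TACI long and 3.07 ± 0.135 in control, since both genes were higher in TACI short and NFKB2 by more. In TACI long both precursor genes were lower, and their ratio stayed above every control value. NFKB2 over RELB, the 2 parts of the non-canonical dimer, averaged 1.18 ± 0.0263 in TACI short, 0.590 ± 0.0197 in TACI long and 0.841 ± 0.0275 in control.

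**Figure D3:**
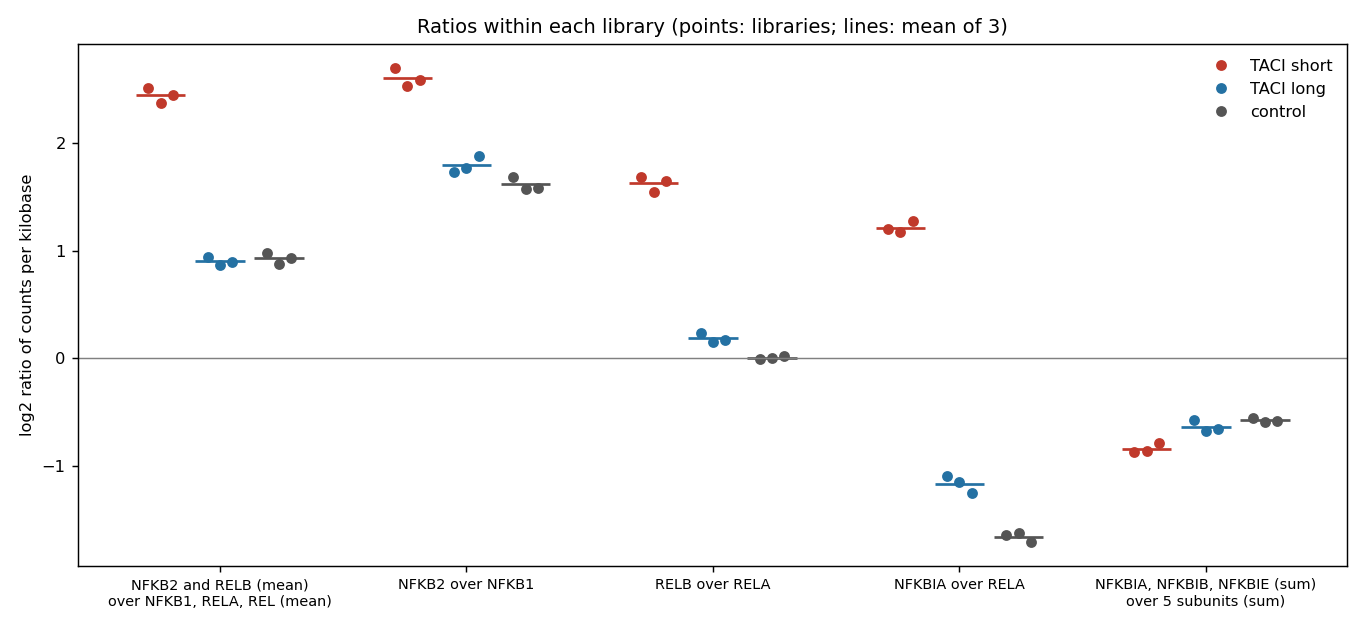
Log2 ratios of counts per kilobase between members within each library (points), with the mean of 3 libraries per group as a line. TACI short lies highest in the first 4 ratios and lowest in the ratio of NFKBIA, NFKBIB and NFKBIE to the 5 subunits. By group means, TACI long lies between TACI short and control in every ratio but the first. In the ratio of NFKBIA, NFKBIB and NFKBIE to the 5 subunits, its libraries overlap those of control.

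The inhibitor genes shifted against each other. NFKBIA over NFKBIB averaged 1.52 ± 0.0914 in TACI short, 0.410 ± 0.0133 in TACI long and 0.240 ± 0.00393 in control, so that IkB-alpha transcripts outnumbered IkB-beta transcripts per length only in TACI short. NFKBIA over RELA averaged 2.32 ± 0.0889 in TACI short, 0.447 ± 0.0238 in TACI long and 0.317 ± 0.00941 in control. Summed, NFKBIA, NFKBIB and NFKBIE stood at 86.3 ± 0.865 CPM per kilobase in TACI short, 37.6 ± 0.671 in TACI long and 42.7 ± 0.844 in control. The 5 subunits summed to 154.4 ± 6.21 CPM per kilobase in TACI short, 58.3 ± 1.12 in TACI long and 63.5 ± 0.407 in control. Both sums were thus highest in TACI short, and the ratio of the inhibitor sum to the subunit sum was 0.560 ± 0.0174 in TACI short, 0.645 ± 0.0240 in TACI long and 0.672 ± 0.0101 in control. All TACI short values of this ratio lay below all control values.

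Seen as shares of all subunit RNA per length, NFKB2 made up 42.3% ± 0.420 in TACI short, 20.6% ± 0.228 in TACI long and 25.6% ± 0.800 in control, and RELA 11.7% ± 0.382, 30.6% ± 0.311 and 30.3% ± 0.308 in the same groups. RELB held 36.0% ± 0.710 in TACI short, 34.9% ± 0.819 in TACI long and 30.4% ± 0.360 in control. Among the 5 IkB genes, NFKBIA made up 43.2% ± 0.848 in TACI short, 20.6% ± 0.652 in TACI long and 13.9% ± 0.368 in control. NFKBIB made up 28.4% ± 1.20 in TACI short, 50.3% ± 0.252 in TACI long and 57.8% ± 0.655 in control, and was the leading IkB transcript outside TACI short. BCL3 had a share of 9.26% ± 0.455 in TACI short, 2.53% ± 0.271 in TACI long and 2.19% ± 0.0135 in control.

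**Figure D4:**
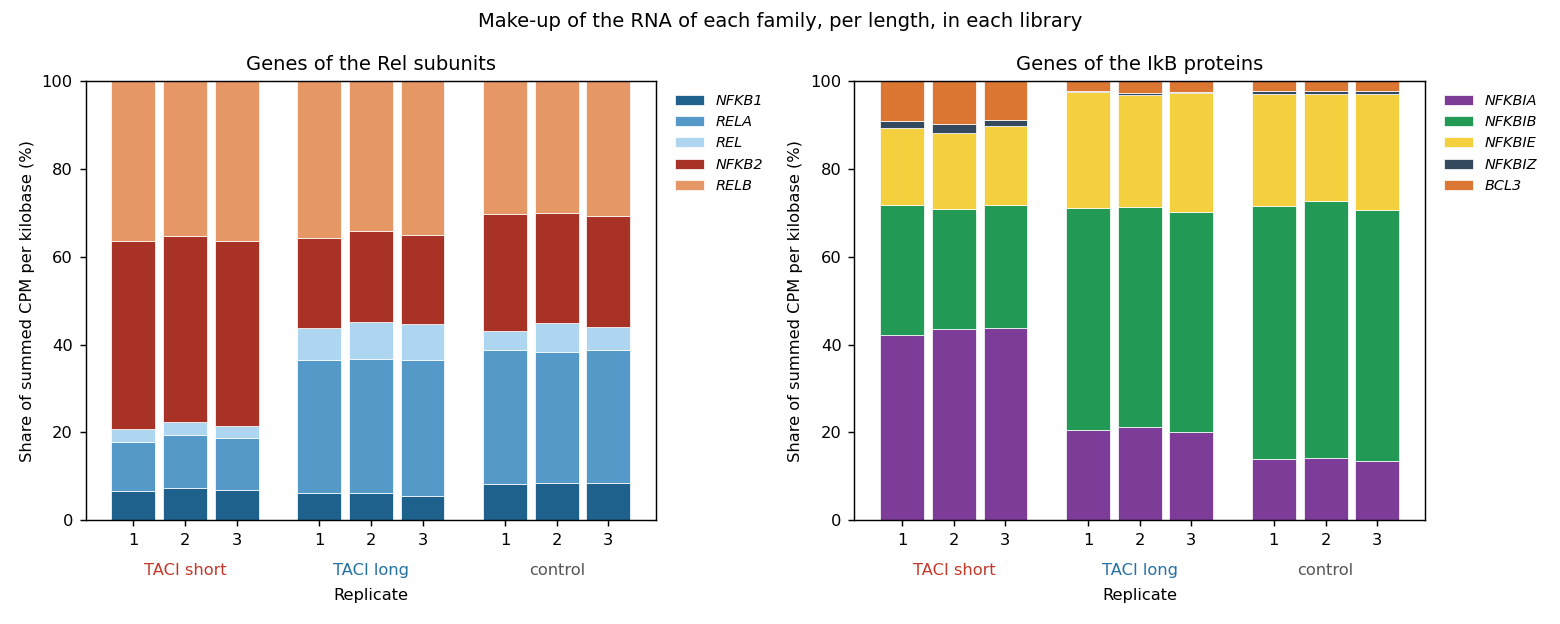
Share (%) of each gene in the summed CPM per kilobase of the 5 subunits (left panel) and of the 5 IkB genes (right panel), one bar per library, TACI short, TACI long and control in turn. NFKB2 fills 42.3% of the subunit bars on average in TACI short and 25.6% in control, and NFKBIA fills 43.2% of the IkB bars in TACI short and 13.9% in control.

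By level per length, the order in TACI short was NFKB2 (65.4 CPM per kilobase), RELB (55.6), NFKBIA (41.8), NFKBIB (27.5), RELA (18.02), NFKBIE (17.0), NFKB1 (10.7), BCL3 (8.97), REL (4.63) and NFKBIZ (1.62). In TACI long it was RELB (20.3 CPM per kilobase), NFKBIB (19.5), RELA (17.9), NFKB2 (12.001), NFKBIE (10.2), NFKBIA (7.98), REL (4.66), NFKB1 (3.46), BCL3 (0.979) and NFKBIZ (0.107). In control it was NFKBIB (25.4 CPM per kilobase), RELB (19.3), RELA (19.2), NFKB2 (16.2), NFKBIE (11.2), NFKBIA (6.11), NFKB1 (5.29), REL (3.42), BCL3 (0.962) and NFKBIZ (0.314). Of these neighbours, the library ranges overlapped for RELB and RELA in control and for no other pair.

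The level of REL per length depends on the exon bases counted. Its annotated exons span 11255 bases, of which 5702 are shared with an overlapping non-coding gene on the same strand that had 0 counts in every library. Over the other 5553 bases REL would stand at 9.375 ± 0.629 CPM per kilobase in TACI short, 9.45 ± 0.845 in TACI long and 6.94 ± 1.40 in control. Its mean would then pass BCL3 in TACI short, NFKBIA in TACI long, and NFKBIA and NFKB1 in control. The order above and its statement on ranges thus hold for REL only over its full exon length. NFKBIB shares 40 exon bases with SIRT2 on the opposite strand, which the library kit does not separate.

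Genes whose profile over the 9 libraries was most like that of a member were sought among 11103 genes, by the root mean square difference of centred log2 CPM. KIF21B (0.0561) and PTK2B (0.0608) were nearest to NFKB1, followed by GBE1 (0.0674) and SH2B3 (0.0771). NECTIN1 (0.0694) was nearest to NFKB2, at 26.9 CPM in TACI short, 4.69 CPM in TACI long and 6.06 CPM in control. For BCL3 the nearest were NEDD4L (0.0904), BIRC3 (0.11), DUSP22 (0.145) and HCP5 (0.189). The nearest to NFKBIA was PARP8, at 0.155.

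The other parts of the pathway were read from lists chosen with earlier results of these data known. Of 19 upstream kinases and adaptors, 5 were higher and 8 lower in TACI short than in control, with a median log2 fold change of -0.064, where 31.5% of all genes were higher and 31.1% lower. The balance turned with the scaling, and that of all genes moved too. With library totals 8 of the 19 were higher and 5 lower (median 0.064), where 6873 of all 16672 genes were higher and 3771 lower. With upper-quartile factors 8 were higher and 6 lower (median 0.017), where 6320 of all genes were higher and 4330 lower. TRAF3, the adaptor that keeps NIK unstable, averaged 103 ± 3.89 CPM in TACI short and 55.6 ± 1.67 CPM in control (log2 0.76 ± 0.04, adjusted p = 8.33e-13). MAP3K14, the gene of NIK, averaged 35.3 ± 1.84 CPM in TACI short and 17.6 ± 0.681 CPM in control (log2 0.88 ± 0.06, adjusted p = 5.42e-12). BCL10, an adaptor of the antigen receptor route, was higher too (log2 0.54, adjusted p = 8.73e-08), and TRAF5 was lower (log2 -0.53, adjusted p = 2.44e-08). In TACI long against control, 4 of the 19 were higher and 6 lower, where 25.2% of all genes were higher and 25.9% lower. TRAF5 (log2 -0.73, adjusted p = 2.4e-10) and the IKK subunit gene IKBKB (log2 -0.38, adjusted p = 1.52e-06) were among the lower ones.

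Of 11 genes that ubiquitinate, degrade or process IkB proteins and p100, 8 were lower in TACI short than in control and the other 3 were not called (median log2 -0.19), where 31.1% of all genes were lower. With library totals as scale 4 were lower and 1 higher (median -0.057), where 3771 of all 16672 genes were lower and 6873 higher. In TACI long 2 were lower and 6 higher than in control (median 0.16), where 25.9% of all genes were lower and 25.2% higher. VCP, a segregase that extracts ubiquitinated IkB-alpha, averaged 364 ± 3.48 CPM in TACI short, 538 ± 4.999 CPM in TACI long and 465 ± 10.01 CPM in control. Its log2 fold change was -0.48 in TACI short (adjusted p = 7.93e-10) and 0.21 in TACI long (adjusted p = 0.00016), each against control. The ubiquitin-conjugating enzyme gene UBE2D1 and the ligase subunit genes CUL1 and SKP1 were also lower in TACI short, by log2 -0.67, -0.45 and -0.30. Sizes in this list were small beside those of NFKB2 or NFKBIA.

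Of 13 brakes on the pathway, 6 were higher and 2 lower in TACI short than in control (median log2 0.071), where 31.5% of all genes were higher and 31.1% lower. With library totals or upper-quartile factors 9 were higher and 2 lower (medians 0.20 and 0.15). Of all 16672 genes, 6873 were higher and 3771 lower with library totals, and 6320 and 4330 with upper-quartile factors. The ubiquitin-editing enzyme gene TNFAIP3 averaged 42.4 ± 2.50 CPM in TACI short, 3.46 ± 0.702 CPM in TACI long and 3.48 ± 0.695 CPM in control (log2 3.48 ± 0.15 for TACI short against control, adjusted p = 6.67e-08). NFKBID, a further nuclear IkB gene outside the 10, averaged 29.6 ± 4.502 CPM in TACI short, 5.83 ± 0.866 CPM in TACI long and 9.47 ± 0.857 CPM in control, with log2 fold changes of 1.51 ± 0.12 in TACI short (adjusted p = 1.67e-06) and -0.70 ± 0.13 in TACI long (adjusted p = 0.00136). TNIP1 and CYLD, which act with or like TNFAIP3 on ubiquitin chains, were higher in TACI short by log2 1.12 (adjusted p = 2.09e-16) and 0.53 (adjusted p = 4.23e-09). In TACI long against control, 4 of the 13 were higher, OTULIN by log2 0.46 (adjusted p = 7.3e-09), and 3 lower. The shares over all genes were 25.2% higher and 25.9% lower there.

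Of 12 nuclear partners, 1 was higher and 5 were lower in TACI short than in control (median log2 -0.11), where 31.1% of all genes were lower. This count was not stable. With library totals 3 were higher and 3 lower (median 0.016), where 6873 of all 16672 genes were higher and 3771 lower. With upper-quartile factors 2 were higher and 3 lower, where 6320 of all genes were higher and 4330 lower. Without TACI short replicate 1, 8 were lower, where 5566 of all 17420 genes were lower. Without TACI short replicates 2 and 3, which leaves 1 TACI short library, the median was -0.042. CDK9, the kinase that releases paused RNA polymerase, was lower in TACI short (log2 -0.34, adjusted p = 5e-07) and in TACI long (log2 -0.17, adjusted p = 0.00195), each against control. In TACI long 7 of the 12 were lower than in control and 3 were higher, where 25.9% of all genes were lower and 25.2% higher.

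Of 36 known NF-kB target genes, 31 passed the filter on low counts. In TACI short against control 24 were higher and 2 lower, where 31.5% of all genes were higher and 31.1% lower. The median log2 fold change of the 31 was 1.70. With TACI short replicates 2 and 3 left out and the 1 remaining library assumed to vary like those of the other groups, 33 passed the filter. Their median was 0.94, and that over all genes was 0.011. BIRC3, an inhibitor of apoptosis and NIK regulator, averaged 705 ± 11.7 CPM in TACI short, 89.2 ± 0.351 CPM in TACI long and 81.6 ± 1.07 CPM in control (log2 2.98 ± 0.04 for TACI short against control, adjusted p = 1.39e-23). CD40, a TNF receptor family member of B cells, PLEK and IL10 were higher in TACI short by log2 1.70, 1.72 and 2.11 (adjusted p of 1.85e-18, 3.46e-18 and 3.13e-18).

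In TACI long against control, 5 of the 31 targets were higher and 15 lower (median log2 -0.19), where 25.2% of all genes were higher and 25.9% lower. The homing receptor gene CCR7 averaged 29.2 ± 0.948 CPM in TACI short, 0.332 ± 0.150 CPM in TACI long and 3.17 ± 0.0028 CPM in control, with log2 fold changes of 3.07 ± 0.10 in TACI short (adjusted p = 9.54e-16) and -3.23 ± 0.16 in TACI long (adjusted p = 7.24e-13). IL10 was lower in TACI long by log2 -1.58 (adjusted p = 2.23e-14), TNF by -2.09 (adjusted p = 1.1e-13) and BCL2A1, an anti-apoptotic gene, by -1.25 (adjusted p = 2.88e-12).

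**Figure D5:**
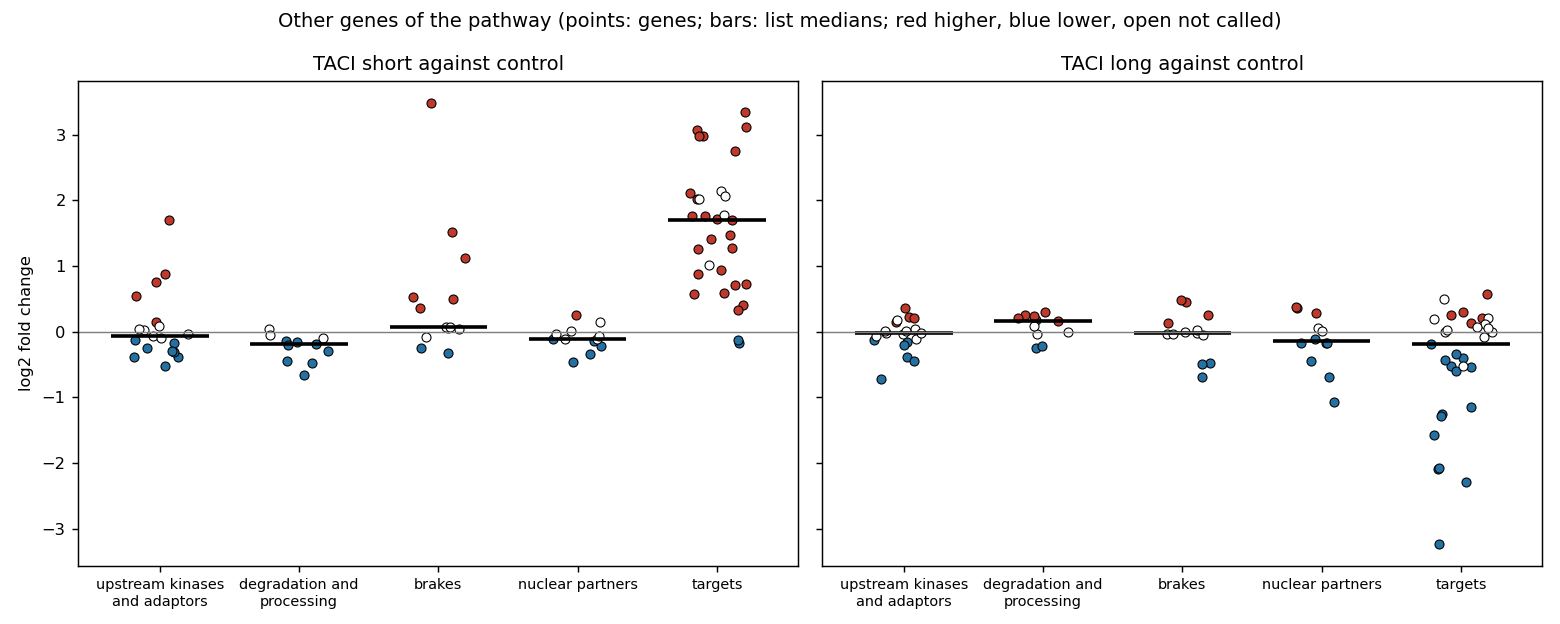
Log2 fold change (vertical axis) of each tested gene in the 5 pathway lists for TACI short against control (left panel) and TACI long against control (right panel); red points were called higher, blue points lower, open points were not called, and bars are list medians. The targets have a median of 1.70 in TACI short and -0.19 in TACI long, while the other lists have medians between -0.19 and 0.16.

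Genes outside the 10 with the word GGGAATTTCC in their 250-base window were set beside the members. The word was in a window of 48 genes, the 5 members included. Of these 48, 24 were tested, and 19 remained when the 5 members were left out. In TACI short against control 10 of these 19 were higher (52.6%, against 31.5% of all genes) and 1 was lower, with a median log2 fold change of 1.15. In TACI long against control 5 were higher (26.3%, against 25.2% of all genes) and 4 lower. These counts were made only with TMM factors and all 9 libraries. With library totals as scale, 6873 of all 16672 genes were higher in TACI short against control, and the count among the 19 was not repeated. Whether the word has a part in these changes was not tested. Among the members with the word, NFKB1, NFKBIA and NFKBIZ were higher in TACI short and NFKBIB and REL were not called. BCL3, which had the largest fold, had no match in its window, but that window lies inside the gene.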

How the data were processed

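Per the labels' protocols, polyadenylated RNA was extracted from sorted cells with the RNeasy Plus Micro kit, checked for integrity, and made into Nextera XT libraries, which do not mark strand. The authors deposited raw counts per gene with no normalization. The submitters' processing notes name FastQC, STAR 2.4.0h, HTSeq and hg38; the annotation release, strand setting and filters are not given in the sources used here. Gene starts, ends and lengths are those deposited with the counts, and overlaps were computed from these positions. Gene types came from GENCODE 29.

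CPM is a count over its library total, and CPM per kilobase divides it by exon length. Tests used edgeR 4.0.16 in R 4.3.3 (robust quasi-likelihood, TMM factors, group only, all 9 libraries, 6 residual degrees of freedom) on 16672 genes kept by filterByExpr (minimum count 10, minimum total 15), with Benjamini-Hochberg adjustment over all of them and calls at an adjusted p under 0.05. SE is the absolute log2 fold change over the square root of F. The steps were tested on simulated data. Replicates of a group differed by more than sampling noise (chi-square per degree of freedom 2.45 to 18.2), so no library was a copy.

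Same-numbered TACI short and control libraries deviated together (correlations 0.594, 0.376 and 0.297), which by the rule used pairs them; the other group pairs did not (-0.487 to 0.243). The source of the pairing is not given in the labels. Alternatives were DESeq2 1.42.0, limma-voom (limma 3.58.1), other scalings and filters, groups alone, the replicate block and each library left out.

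The members and gene lists were chosen with earlier results of these data known. Named genes are the 10 members, TNFRSF13B, up to 4 called genes per list and comparison by adjusted p, and the 4 nearest profiles of NFKB1, NFKB2, NFKBIA and BCL3. The rule also names some genes that are not reported here.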

Additional observations from a re-analysis of the deposited data

How the results depend on the processing

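NFKB1, NFKB2, RELB, NFKBIA, NFKBIE, NFKBIZ and BCL3 stayed called higher in TACI short than in control under all 19 alternatives, with adjusted p-values up to 1.4e-05. The number of members called there was 8 to 9 with each library left out, 10 with library totals as scale, 9 with limma-voom and 8 with DESeq2. Of all 16672 genes, 6873 were higher and 3771 lower with library totals, 5075 and 5138 with limma-voom, and 5098 and 4927 with DESeq2. With each library left out, 4720 to 6022 genes were higher and 4770 to 5566 lower, of 16964 to 17652 tested. For TACI long against control 5 members were called when any gene with at least 1 count was kept, where 3845 of 41009 genes were higher and 3880 lower. With each library left out 5 to 7 members were called, where 3556 to 4618 genes were higher and 3713 to 4524 lower. For TACI short against TACI long 8 to 9 members were called. With each library left out, 5454 to 6686 genes were higher there and 5293 to 5975 lower. The replicate block gave 8, 8 and 9, as reported, and changed no call of a member; with TACI short and control alone it gave 8. With library totals as scale, the median over all genes moved to 0.16 in TACI short against control, NFKBIB turned to 0.11 and HDAC2 to 0.011 there, and RELA turned to 0.013 and HDAC1 to 0.088 in TACI short against TACI long. REL passed the test in TACI short against control with library totals (adjusted p = 0.042), limma-voom (0.0304) and without control replicate 2 (0.00132). Over all members and alternatives, 511 results were on the same side of the threshold, 33 lost their call, 4 gained one and 2 reversed.

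The log2 ratio of non-canonical to canonical subunits was 1.671 in TACI short, 0.01421 in TACI long and 0.1571 in control without division by length, 2.646, 1.244 and 1.337 as a mean of log2 values, and 2.251, 0.6576 and 0.7605 with REL over its unshared bases, an alternative added after the data were seen. Leaving out libraries gave 2.41 to 2.479 in TACI short, 0.8811 to 0.9184 in TACI long and 0.9047 to 0.9573 in control. TACI short stayed highest in each. Upper-quartile factors gave 6320 higher and 4330 lower genes in TACI short against control. Depth limits NFKBIZ most, with 16 to 36 counts per TACI long library.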
